A study of Mus musculus with 95 samples.

Results

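The livers of control mice, sampled after 3 months, were compared with the livers of time-0 mice, sampled when those 3 months began. All 16 of these libraries were used, of 95 in the series: 8 control and 8 time-0 livers, each group with 4 animals labelled F and 4 labelled M. They were chosen by the tissue and treatment labels alone. The series compares a torpor-like state (TLS) of 3 months with control and time-0 mice in liver, white adipose tissue (WAT), kidney and cortex, and its title concerns epigenetic ageing of blood and healthspan. All mice were C57BL/6J, a standard inbred laboratory strain, and each library came from 1 animal. By the header of the count table, time-0 animals were 17.4 weeks old and control and TLS animals 29.3 weeks. Time-0 and control mice are different animals, so age, the time spent in the experiment and the day of collection differ together between the groups and cannot be told apart. Library numbers also differ with the group in F livers, where every time-0 number lies below every control number. In M livers the time-0 and control numbers alternate. What this numbering stands for is not stated in the sources used here. Library order therefore cannot be told apart from the group in F livers. The hour of collection, the feeding state and what control mice were given are not stated in the sources used here. Every mouse was anaesthetised with isoflurane and perfused with PBS, the liver was flash frozen, and polyadenylated RNA was sequenced.

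The liver takes up glucose after a meal, stores it as glycogen and turns the surplus into fatty acids. Between meals it releases glucose and burns fat. Insulin, glucagon and the circadian clock set this balance. The clock is a loop in which ARNTL and CLOCK switch on genes through DNA sites called E-boxes, PER and CRY proteins block them, and the nuclear receptor REV-ERB represses Arntl in a second loop. Many liver genes therefore differ with the hour of the day and with the last meal as well as with age.

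Total counts were 15633658 to 22816521 in time-0 livers and 11390130 to 20605664 in control livers (exact permutation test of the means, two-sided, p = 0.177). Sex labels matched sex-linked genes in all 24 liver libraries, TLS included, and other tissues were not checked. Sex was the main axis of variation, with 33.7% of the variance on the first principal component. Defining hepatocyte genes took 8.85 to 13.98% of counts at time-0 and 5.56 to 13.25% in control, with Alb at 58620 and 70640 mean CPM. CPM are counts scaled to a common library size, with TMM scaling of the totals. The 10 most abundant genes took 17.1 to 36.8% of counts at time-0 and 19.8 to 58.4% in control (exact permutation test, two-sided, p = 0.0148). The p values of such library measures are not adjusted for their number. The 58.4%, in control animal 983B, includes 46.6% from the transcript described next. The transcript CT010467.1, annotated as ribosomal RNA (GRCm38 chr17:39846353-39848827, minus strand), held 7.37 to 46.6% of counts in the 4 F control livers and 0.511 to 18.6% in the 4 F time-0 livers. In M livers it held 0.710 to 1.84% in control and 0.612 to 1.65% at time-0. The F groups are also those whose library numbers do not overlap, and a link of the share with library order was not tested. The share was over 10% in 4 libraries, which are control animals 983B, D215 and 9916 and time-0 animal 1, all F. The counts of genes that differed between control and time-0 livers, and between liver and the other tissues, are therefore also given without those 4 libraries, an alternative chosen after the data were seen. That alternative keeps A123 as the only F control. Sex balance and the number of animals therefore change together with the CT010467.1 share, and their effects cannot be told apart. TLS animal B03E, at 13.8%, stayed in the liver fit.

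Of 13604 genes tested, 72 differed between control and time-0 livers at a Benjamini-Hochberg adjusted p below 0.05 in edgeR's quasi-likelihood test, which is 0.529%. Of these, 29 were higher in control (0.213%) and 43 were lower (0.316%), and 48 changed over 2-fold (25 higher, 23 lower). The median change over all genes tested was 0.00 on the log2 scale. Of the 72, 59 are protein coding, and the groups' CPM ranges did not overlap for 27 of them, against 47 genes (0.345%) of all tested. Without the 4 libraries rich in CT010467.1, 12 genes passed, 6 in each direction, and all 12 were among the 72. Among them were Nr1d1, Tnnc1, Lingo4, B930025P03Rik, Angptl8, Cdh1, 1810013L24Rik, Erbb3, Fbxo21 and Slc2a4. All 72 kept their sign in that smaller comparison, which reuses libraries on which the 72 were chosen and so is no separate test. The count also depended on the method and on single animals. The 72 came from a fit that also held the TLS livers, which add to the estimate of spread. With the 16 control and time-0 libraries alone 349 genes passed, with DESeq2 251 and with limma and quality weights 1402. The count fell to 31 without control animal 9916, 36 without A367, 42 without 983B, and 34, 34, 40 and 38 without time-0 animals 2, 4, 5 and 6. It rose to 82 without control animal A123 and to 81 without time-0 animal 3.

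**Figure D1:**
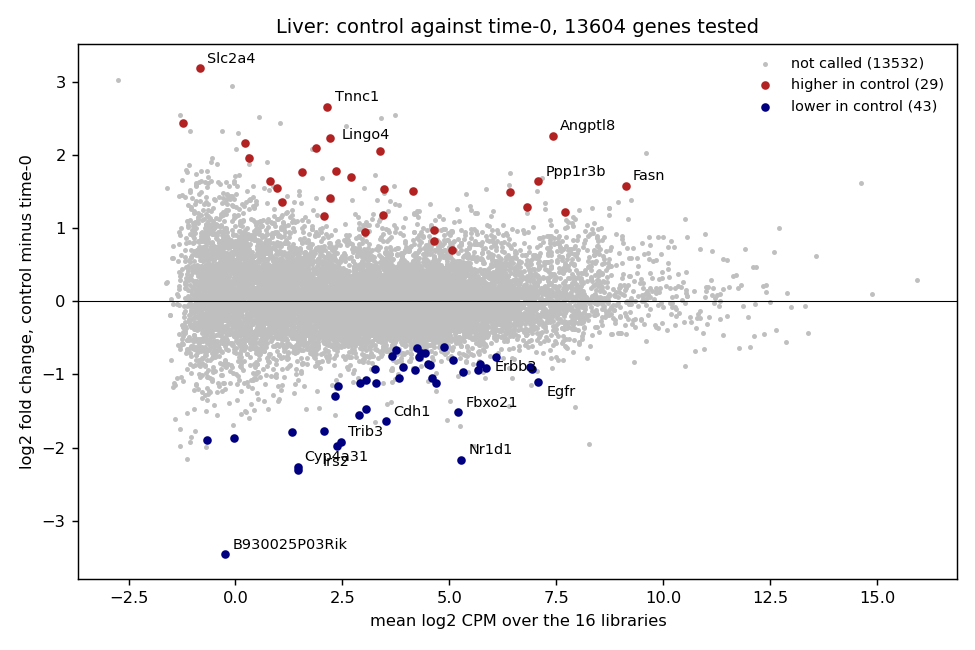
Each point is 1 of 13604 genes, with its mean log2 CPM over the 16 libraries on the x axis and its log2 fold change (control minus time-0) on the y axis. Red points are the 29 genes higher in control, blue points the 43 lower, and the labelled genes span low levels such as Slc2a4 to high levels such as Fasn.

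A repressor of the clock fell. Nr1d1, which encodes the repressor REV-ERB alpha, ranged from 70.5 to 127.3 CPM at time-0 (median 84.1) and from 7.03 to 35.6 CPM in control (median 17.6). Every control liver lay below every time-0 liver. The log2 fold change was -2.16 ± 0.24 (SE, n = 8 and 8; edgeR adjusted p = 1.53e-05), the smallest p of all genes. TLS livers, of the same age as the controls, held a mean of 31.8 CPM, which lies between the time-0 and control means. Nr1d1 passed without the 4 libraries rich in CT010467.1 (log2 fold change -2.40), but not in F libraries alone (-1.60, edgeR adjusted p = 0.106), and it passed in all the other alternatives.

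Of the 20 clock genes tested (21 listed), 1 was higher and 2 were lower (Nr1d1 and Bhlhe41), and their median change was -0.05, beside 0.00 over all genes. For this list and each list below, 0.213% of all genes tested were called higher and 0.316% lower. Of all 13604 genes, 6784 were above 0. Bhlhe41, also called Dec2, represses E-box genes. It had a low level of 1.10 to 8.85 CPM at time-0 (median 6.13) and 0.129 to 2.28 CPM in control (median 1.55), with ranges that overlapped. Its log2 fold change of -1.79 ± 0.40 passed (edgeR adjusted p = 0.0364), but not in 17 of 30 alternatives, among them the fit without the libraries rich in CT010467.1 (adjusted p = 0.176). Dbp, an activator whose gene is driven through E-boxes, ranged from 117.5 to 263.6 CPM at time-0 and from 32.6 to 165 CPM in control. The difference of -1.15 ± 0.29 did not pass in edgeR (adjusted p = 0.0717) but did in DESeq2 (adjusted p = 0.0134). Cry1, a repressor of ARNTL and CLOCK, had mean CPM of 6.57 and 14.7 (log2 fold change 1.12 ± 0.35, edgeR adjusted p = 0.169).

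Of the loop of ARNTL, CLOCK, PER and CRY proteins, no tested gene passed. Per1 was at 36.9 CPM at time-0 and 37.99 CPM in control (means), with a log2 fold change of 0.06 ± 0.24. Per3 was at -0.01 ± 0.27, Per2 at 0.62 ± 0.47, Clock at -0.33 ± 0.24 and Ciart at -0.01 ± 0.30. Arntl was near 1 CPM, at 1.04 and 1.70 CPM (0.58 ± 0.54), too low for a fine comparison. Nr1d2, the paralogue of Nr1d1, was lower than the time-0 mean of its sex in all 8 controls, at -0.49 ± 0.18 (edgeR adjusted p = 0.216). Of 21 genes listed as rhythmic liver output, 1 was higher and none lower, and their median was 0.42.

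**Figure D2:**
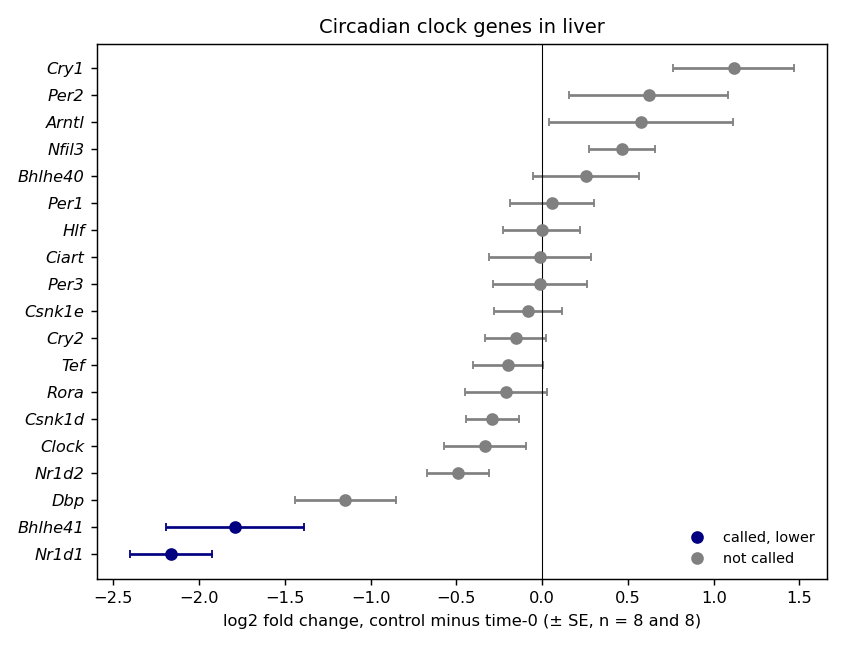
Points give the log2 fold change (control minus time-0) of 19 clock genes in liver and bars its SE, with 8 livers in each group. Nr1d1 and Bhlhe41 (blue) were called lower, while Dbp at -1.15 and Cry1 at 1.12 did not pass.

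Ppp1r3b, a gene of glycogen storage, was higher in control livers. Ppp1r3b encodes the subunit that brings protein phosphatase to glycogen and so favours its synthesis. It was tightly held at time-0, from 68 to 93.2 CPM (median 76.7), and wide in control, from 104.5 to 364.5 CPM (median 232). All controls were above all time-0 livers, and the log2 fold change was 1.64 ± 0.28 (edgeR adjusted p = 0.00275), or 1.62 without the 4 libraries rich in CT010467.1, where it missed the threshold (adjusted p = 0.0747). Of 21 glycogen and glycolysis genes, 1 was called (Ppp1r3b), and that list's median was 0.02.

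Of 30 genes of fatty acid synthesis, 2 were higher, Fasn among them, and none lower, beside 0.213% and 0.316% of all genes. Their median change was 0.26, with 26 of 30 above 0, beside 6784 of all 13604 genes. Fasn encodes fatty acid synthase. It ranged from 214.9 to 579 CPM at time-0 (median 326) and from 377 to 1781 CPM in control (median 1073). The ranges overlapped, and the 4 F controls all lay above the 4 M controls. The log2 fold change was 1.58 ± 0.35 (edgeR adjusted p = 0.0323). It was 1.94 in F and 1.11 in M libraries, and the call was lost in 18 of 30 alternatives, including the fit without the libraries rich in CT010467.1 (1.33, edgeR adjusted p = 0.302). TLS livers averaged 254 CPM.

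Other lipogenic genes had higher means in control without passing. Thrsp, whose product promotes lipogenesis, ranged from 155 to 706 CPM at time-0 and from 880 to 2559 CPM in control. These ranges do not overlap, but the difference of 2.03 ± 0.49 missed the threshold (edgeR adjusted p = 0.0543). Thrsp passed in 4 of 30 alternatives. Pnpla3 (2.08 ± 0.57), Elovl6 (1.20 ± 0.37), Srebf1 (0.89 ± 0.29) and Acly (0.87 ± 0.27) also did not pass, with edgeR adjusted p from 0.106 to 0.183. Srebf1 encodes the insulin-responsive activator of this pathway. Acaca, Me1 and Scd1 were at 0.20 ± 0.24, 0.07 ± 0.31 and 0.29 ± 0.42. Gm35986, an antisense transcript that overlaps Elovl6, was called higher at 1.79 ± 0.42 (edgeR adjusted p = 0.047), a call lost in 20 of 30 alternatives.

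Angptl8, a hormone made after feeding that slows lipoprotein lipase, had the largest rise among called genes with a control mean above 20 CPM. It ranged from 38.9 to 222 CPM at time-0 (median 67.1) and from 141.2 to 795 CPM in control (median 415). The ranges overlapped, because 2 time-0 livers, those of animals 1 and 6, exceeded the lowest control. The log2 fold change was 2.26 ± 0.41 (edgeR adjusted p = 0.00532), and 2.62 without the libraries rich in CT010467.1 (adjusted p = 0.0159). Angptl8 lies inside Dock6 on the opposite strand, and Dock6 was at 0.37 (edgeR adjusted p = 0.432). Angptl8 was the 1 gene called of 23 lipoprotein genes, whose median was 0.16. Angptl4, a fasting-induced relative, was at -0.91 ± 0.27 (edgeR adjusted p = 0.13).

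**Figure D3:**
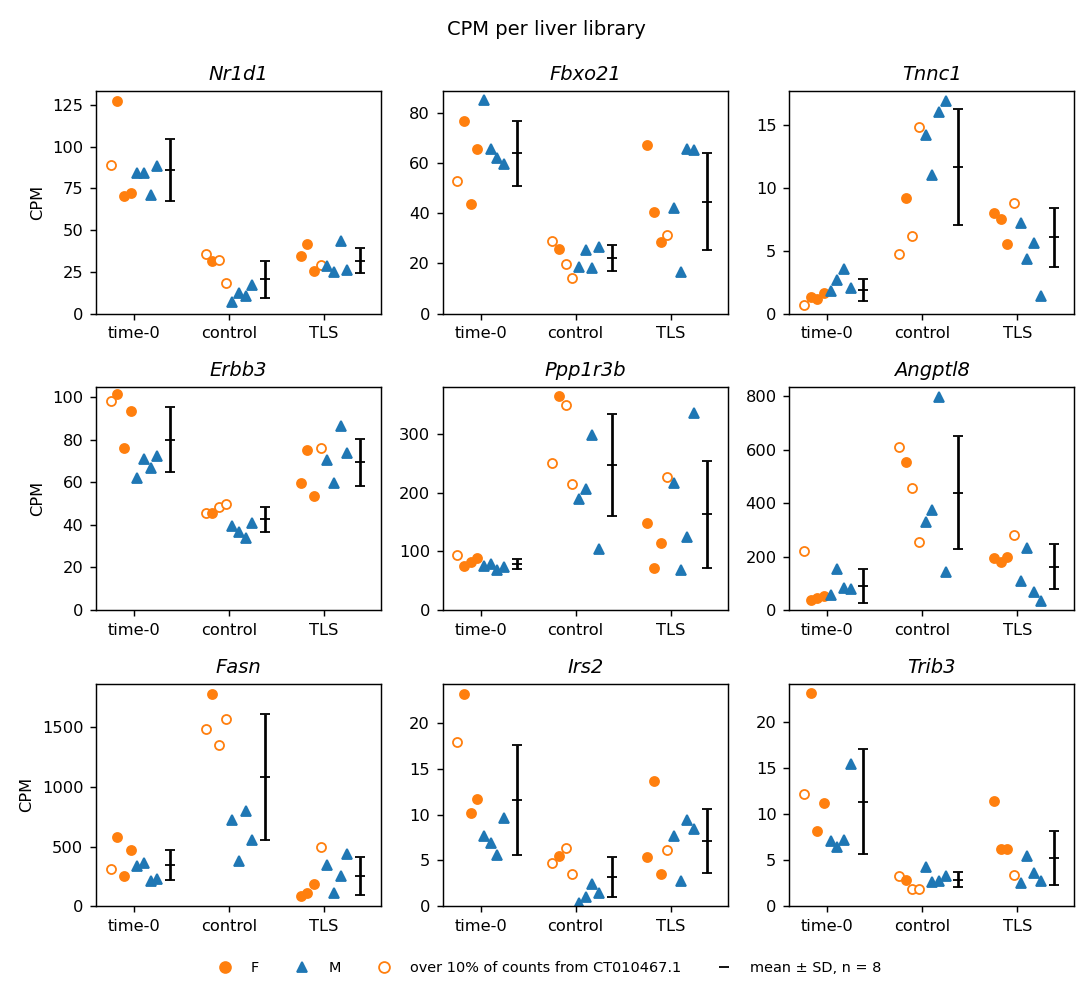
CPM of 9 genes in each of 24 liver libraries, by group, with circles for F, triangles for M, open circles for F libraries with over 10% of counts from CT010467.1, and black bars for mean ± SD (n = 8). Nr1d1, Fbxo21, Tnnc1, Erbb3, Ppp1r3b and Trib3 do not overlap between time-0 and control, and F controls carry the highest Fasn values.

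Among genes of the fasted liver, Irs2 was lower in control, and Igfbp1 and Pck1 had lower means that did not pass. Irs2 encodes an adaptor of the insulin receptor that rises in fasting. It ranged from 5.61 to 23.1 CPM at time-0 (median 9.90) and from 0.414 to 6.41 CPM in control (median 2.95). The ranges overlapped, with 1 time-0 liver below the highest control. The log2 fold change was -1.98 ± 0.35 (edgeR adjusted p = 0.00425), and -2.19 without the libraries rich in CT010467.1 (adjusted p = 0.0643). Of the 19 genes of gluconeogenesis and fasting, Irs2 was the 1 called, and the median was -0.26. Igfbp1, an IGF-binding protein repressed by insulin, averaged 13.7 and 3.57 CPM, and Pck1, which commits carbon to glucose synthesis, averaged 2078 and 1125 CPM. Neither passed (-1.93 ± 0.52 and -0.89 ± 0.28, edgeR adjusted p = 0.0989 and 0.172), although all 8 controls lay below the time-0 mean of their sex for both. Igfbp1 passed in 5 and Pck1 in 2 of 30 alternatives. G6pc was at -0.26 ± 0.46.

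Trib3, a pseudokinase that inhibits AKT and is induced by amino acid shortage, ranged from 6.47 to 23.1 CPM at time-0 (median 9.72) and from 1.83 to 4.31 CPM in control (median 2.79). The groups were fully apart. Its log2 fold change was -1.92 ± 0.29 (edgeR adjusted p = 0.000965), or -1.60 without the libraries rich in CT010467.1 (adjusted p = 0.0756). It was the 1 call among 19 genes of the integrated stress response, whose median was -0.03. Derl3, which helps export misfolded proteins from the endoplasmic reticulum, was the 1 call among 20 chaperone genes of that compartment. It averaged 7.12 CPM at time-0 and 1.45 CPM in control (-2.31 ± 0.54, edgeR adjusted p = 0.045), and the call was lost in 23 of 30 alternatives. That list had 19 of 20 members below 0 and a median of -0.35, with Hspa5 at -0.44 ± 0.24.

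Fatty acid oxidation and ketogenesis gave 2 falls among 38 genes, Cyp4a31 and Cyp4a32, which encode fatty acid omega-hydroxylases. Cyp4a31 averaged 6.49 and 1.31 CPM (-2.26 ± 0.38, edgeR adjusted p = 0.00222), and Cyp4a32 averaged 13.6 and 4.64 CPM (-1.55 ± 0.30, adjusted p = 0.0109). Both lost their calls without the libraries rich in CT010467.1 (adjusted p = 0.0829 and 0.246). The 2 are neighbours on chromosome 4, separated by 21953 bases, and closely related copies, so reads may be split between them. The abundant Cyp4a10 and Cyp4a14 were at -0.62 ± 0.48 and 0.19 ± 0.57, and the list's median was 0.07. Acot13, a thioesterase that acts on fatty acyl-CoA, averaged 77.5 and 186 CPM (1.29 ± 0.29, edgeR adjusted p = 0.0323), a call lost in 12 of 30 alternatives.

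**Figure D4:**
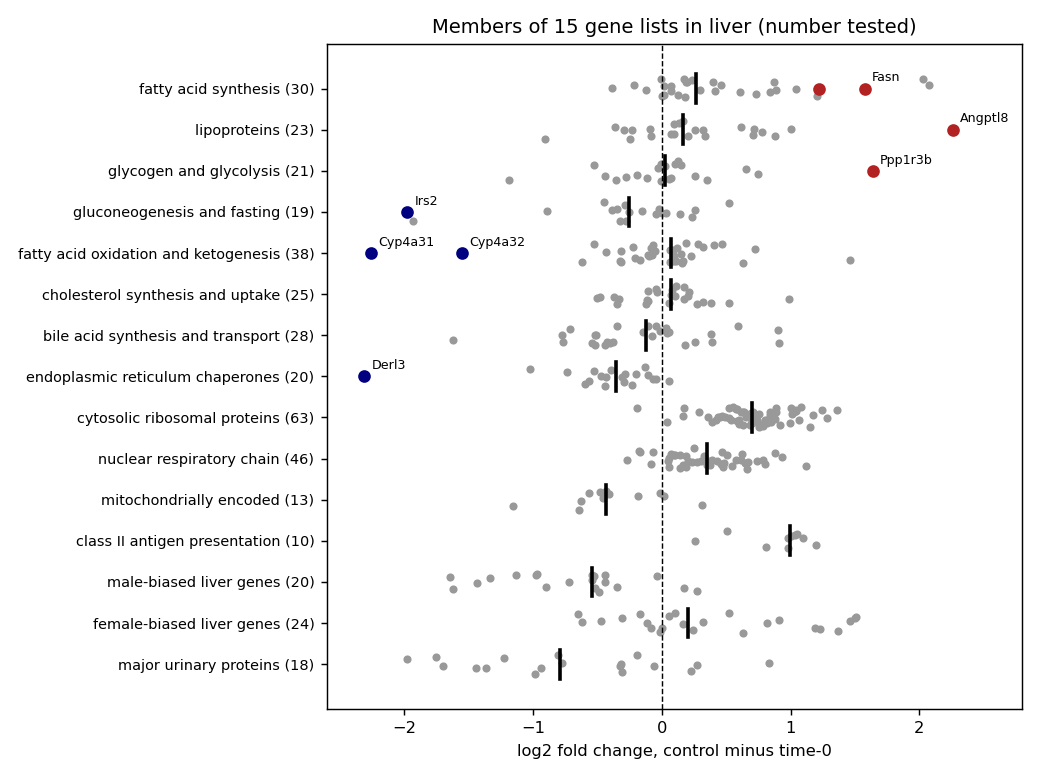
Each point is a tested gene of 1 of 15 gene lists, placed by its log2 fold change (control minus time-0), with called genes in red (higher) or blue (lower). Black bars mark list medians and the dashed line the median of all genes tested, and 62 of 63 ribosomal protein genes lie above 0 with none called, while Thrsp and Pnpla3, not called, lie beyond Fasn.

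Several lists had medians away from that of all genes with no member called. The 63 cytosolic ribosomal protein genes had a median of 0.70, with 62 above 0 and 43 at an unadjusted p below 0.05, a level that 15.1% of all genes reached. The smallest edgeR adjusted p among them was 0.179. Under the other settings 0 to 40 of them were called higher. Their summed share was 1.22 to 3.10% of counts at time-0 and 1.22 to 4.11% in control (exact permutation test, two-sided, p = 0.0669). The 46 nuclear genes of the respiratory chain had a median of 0.35, and 0 to 13 of them were called higher under the other settings. The 13 mitochondrially encoded genes had a median of -0.43. All 10 class II antigen presentation genes were above 0, with a median of 0.99, and H2-Eb1 averaged 13.5 and 30.5 CPM (1.20 ± 0.44, edgeR adjusted p = 0.216). Of those 10, 0 to 4 were called higher under the other settings. Without the 4 libraries rich in CT010467.1 these 4 medians were 0.80, 0.37, -0.21 and 1.05.

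Markers of other cells were sparse. Kupffer cell and macrophage markers took 0.0230 to 0.0481% of counts at time-0 and 0.0182 to 0.0871% in control, and 0 of 14 were called, with a median of 0.48. Endothelial markers (12 tested, median 0.26), stellate cell markers (12, median -0.04) and cholangiocyte markers (9, median -0.34) had no call. Of 8 plasma cell markers tested, none rose past the threshold and Derl3 fell, while the median was 1.47. Under the other settings 0 to 4 of the plasma cell markers were called higher. Igkc, an immunoglobulin light chain, averaged 3.31 and 17.7 CPM (2.39 ± 0.66, edgeR adjusted p = 0.113) and Jchain 0.804 and 2.18 CPM (1.40 ± 0.42, adjusted p = 0.14). The summed share of that list went the other way, from 0.00912 to 0.0305% at time-0 and from 0.00827 to 0.0270% in control (exact permutation test, two-sided, p = 0.0229). Its most abundant member, Xbp1, averaged 168 and 114.6 CPM, so the sum mostly follows that gene. These shares are of all counts, those of CT010467.1 included. In bulk tissue, fewer cells of a type and less RNA per cell cannot be told apart. Exocrine pancreas, skeletal muscle and gallbladder markers were mostly too low to test (12 of 13, 7 of 8 and 7 of 9).

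Genes that differ between the sexes of mice were also looked up. Of 20 genes higher in male liver, none was called and 18 were below 0 (median -0.54). Of 24 genes higher in female liver, none was called and 16 were above 0 (median 0.20). Under the other settings 0 to 3 of the male list were called lower and 0 to 3 of the female list higher. The 18 tested major urinary protein genes had a median of -0.79 and no call, and as near-identical copies their reads may be split. A difference of the change between M and F passed for none of 13604 genes in edgeR, while DESeq2 called 2 and limma 4. Of the 13604, 310 had an unadjusted edgeR p below 0.05 for that difference, beside 2057 (15.1%) for the change itself. The smallest p belonged to Cyp2b9, at 0.15 in F and 3.81 in M (difference of mean log2 CPM), with edgeR adjusted p = 0.122.

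Some of the largest changes fell on genes outside these lists. Tnnc1 encodes slow troponin C, a calcium sensor of heart and slow muscle. It ranged from 0.716 to 3.52 CPM at time-0 (median 1.75) and from 4.77 to 16.9 CPM in control (median 12.6). The ranges were apart, and the log2 fold change was 2.66 ± 0.33 (edgeR adjusted p = 5.61e-05). Of the called genes looked up, it was the only 1 to pass in all 30 alternatives, including F and M libraries alone. Of 8 skeletal muscle markers only 1 could be tested, at -0.01, and a muscle source of Tnnc1 was not tested. Tnnc1 overlaps Nisch on the opposite strand, and Nisch was at -0.03 (edgeR adjusted p = 0.946).

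Lingo4, a membrane protein with leucine-rich repeats, averaged 2.28 CPM at time-0 and 10.8 CPM in control (2.23 ± 0.33, edgeR adjusted p = 0.00062). Ccdc57 and Fasn, 1981 bases apart on the same strand of chromosome 11, were both higher, Ccdc57 at 1.17 ± 0.24. Slc2a4, the insulin-regulated glucose transporter of fat and muscle, averaged 0.166 and 1.56 CPM (3.18 ± 0.54, edgeR adjusted p = 0.00267), a level at which a handful of reads counts.

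On chromosome 8, 2 long non-coding RNAs near Irs2 fell with it. B930025P03Rik (chr8:10870422-10882454) averaged 2.62 CPM at time-0 and 0.256 CPM in control, at -3.46 ± 0.49 (edgeR adjusted p = 0.000491). Gm2814 (chr8:10898169-10900558) averaged 1.74 and 0.465 CPM, at -1.86 ± 0.33 (adjusted p = 0.00425). Irs2 itself lies at chr8:10984681-11008458 on the same strand. These neighbours were singled out after their values were seen.

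Erbb3, Egfr, Btc and Cdh1 were lower in control livers. Erbb3, a receptor for neuregulins, ranged from 62.03 to 101.3 CPM at time-0 (median 74.2) and from 33.7 to 50 CPM in control (median 43.2). The ranges did not overlap, and the log2 fold change was -0.91 ± 0.13 (edgeR adjusted p = 0.00062). Egfr, the receptor for EGF, averaged 254 and 127.6 CPM (-1.10 ± 0.25, edgeR adjusted p = 0.038), and Btc, which encodes the EGFR ligand betacellulin, averaged 1.03 and 0.286 CPM (-1.89 ± 0.45, adjusted p = 0.0488). Egfr lost its call in 16 of 30 alternatives and Btc in 23 of the 29 that tested it. Cdh1, which encodes E-cadherin of epithelial junctions, averaged 20.7 and 6.65 CPM with no overlap (-1.64 ± 0.27, edgeR adjusted p = 0.00201).

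Fbxo21, a substrate receptor of a ubiquitin ligase, ranged from 43.8 to 85.1 CPM at time-0 and from 14.4 to 29.1 CPM in control, a log2 fold change of -1.52 ± 0.23 (edgeR adjusted p = 0.000965). Sort1, a sorting receptor for lipoproteins, and Npc1, which exports cholesterol from lysosomes, fell by 1.11 and 0.76 on the log2 scale, and lost their calls in 5 and 18 of 30 alternatives. F11, the clotting factor XI gene, averaged 57.2 and 29.2 CPM (-0.97 ± 0.18, edgeR adjusted p = 0.00532). Wipi1 (-0.90 ± 0.18), which acts in autophagosome formation, and the transcription factors Mafk (-1.08 ± 0.19) and Klf11 (-1.15 ± 0.25) were also lower, with calls lost in 4, 3 and 12 of 30 alternatives.

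The remaining named genes were of low level or poorly known. Caln1, a calmodulin-like protein gene, averaged 2.87 and 7.68 CPM (1.41 ± 0.23), and Zap70, a kinase of T cell receptor signalling, 11.8 and 32.5 CPM (1.51 ± 0.32). Caln1 lost its call in 3 of 30 alternatives and Zap70 in 13. No T or NK cell marker of 8 was called beside it, and their median was 0.67. Nat8 (1.70 ± 0.36), Gm14403 (1.53 ± 0.33) and the pseudogenes Rps27a-ps2 (2.10 ± 0.43) and Gm3787 (2.06 ± 0.46) rose. Their calls were lost in 10, 14, 7 and 15 of 30 alternatives. Tbc1d30 (-1.29 ± 0.29) and Gm31583 (-1.48 ± 0.32) fell, with calls lost in 16 and 12 of 30. Pseudogene and family members can take reads from their near-identical copies.

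Igf1, Cdkn1a and Mki67, which are tied to growth, arrest and division of cells, did not pass. Igf1 was at 646 and 642 CPM (0.01 ± 0.25), Cdkn1a at 1.40 and 2.72 CPM (0.84 ± 0.69) and Mki67 at 1.93 and 1.08 CPM (-0.86 ± 0.56). None of the 16 tested genes listed for senescence and p53, 29 for cell division or 40 for the interferon response was called. Under the other settings at most 1 senescence gene was called lower, and at most 1 gene each way of the cell division list. Spc24, a kinetochore gene outside that list, was called higher (0.98 ± 0.23, edgeR adjusted p = 0.0383) and lost its call in 16 of 30 alternatives. Cholesterol synthesis (25 genes, median 0.07) and bile acid synthesis and transport (28 genes, median -0.12) had no call either. Under the other settings 0 to 5 of the bile acid genes were called lower, and no cholesterol gene was called. Cyp7a1, the rate-limiting enzyme of bile acid synthesis, averaged 62.3 and 119.3 CPM (0.90 ± 0.34, edgeR adjusted p = 0.231).

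The promoters of called genes were read because clock and feeding factors bind known motifs there. RefSeq promoters (GRCm38.p6, 250 bases before to 50 after the start) were matched for 48 of the 72 genes. The E-box CACGTG, the site of ARNTL and CLOCK and of Bhlhe41 itself, was in 7 of 30 promoters of genes that fell (23.3%), in 2 of 18 of genes that rose (11.1%) and in 7.24% of 27025 promoters. The 7 were Bhlhe41, Derl3, Dlg1, Irs2, Klf11, Mafk and Pik3ap1. The CCAAT box was in 43.3, 44.4 and 37.9% of these sets, and CCCCAC, the last letters of a sterol regulatory element, in 36.7, 27.8 and 28.4%. Both strands were searched. The 27025 promoters include those of genes not tested in liver, so they are not a matched background. A match is a description of letters and not a bound site. The promoters of 2 falling genes with an E-box, of Fasn with 3 CCAAT boxes and of Nr1d1 with neither are shown 5′ to 3′ on the gene's strand, with E-box and CCAAT letters, or ATTGG where the box is on the other strand, in capitals. In Fasn, 2 of the boxes overlap on opposite strands.
Bhlhe41, chr6:145865371-145865670, minus strand: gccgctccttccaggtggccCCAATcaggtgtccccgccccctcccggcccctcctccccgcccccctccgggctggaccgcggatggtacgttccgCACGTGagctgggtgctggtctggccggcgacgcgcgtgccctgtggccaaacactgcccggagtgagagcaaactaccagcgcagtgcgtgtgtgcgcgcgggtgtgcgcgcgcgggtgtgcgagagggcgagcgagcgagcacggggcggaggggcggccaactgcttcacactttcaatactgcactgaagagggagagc
Klf11, chr12:24651121-24651420, plus strand: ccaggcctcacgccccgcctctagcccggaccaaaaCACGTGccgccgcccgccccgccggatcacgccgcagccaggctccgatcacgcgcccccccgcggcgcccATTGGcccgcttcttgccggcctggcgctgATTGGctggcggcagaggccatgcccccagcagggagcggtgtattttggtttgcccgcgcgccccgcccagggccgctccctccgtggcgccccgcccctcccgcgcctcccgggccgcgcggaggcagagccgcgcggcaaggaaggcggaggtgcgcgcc
Fasn, chr11:120824498-120824797, minus strand: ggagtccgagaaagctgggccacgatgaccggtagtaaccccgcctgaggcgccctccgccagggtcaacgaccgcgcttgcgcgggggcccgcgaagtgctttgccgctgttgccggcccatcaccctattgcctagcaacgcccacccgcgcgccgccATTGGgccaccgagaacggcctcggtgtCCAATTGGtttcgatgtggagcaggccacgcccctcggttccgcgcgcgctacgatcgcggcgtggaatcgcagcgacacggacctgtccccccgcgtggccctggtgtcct
Nr1d1, chr11:98775328-98775627, minus strand: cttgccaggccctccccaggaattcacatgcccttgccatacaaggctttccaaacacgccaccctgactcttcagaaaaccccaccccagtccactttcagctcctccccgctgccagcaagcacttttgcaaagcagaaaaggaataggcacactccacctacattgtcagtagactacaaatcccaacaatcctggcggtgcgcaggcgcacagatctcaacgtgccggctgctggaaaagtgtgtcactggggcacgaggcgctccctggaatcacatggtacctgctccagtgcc

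The same comparison was made in 4 tissues at once to ask which changes differed in liver. In a joint edgeR fit of 63 control and time-0 libraries, 378 of 20103 genes (1.88%) had a liver change that differed from the mean of the changes in cortex, kidney and WAT. Kidney time-0 libraries 4 and 5 carry other sex labels than the same animal numbers in the other tissues. Without them the count was 285 (281 shared), and with the animal added as a replicate block to those same libraries it was 175 (169 shared with the 378). Without the 4 liver libraries rich in CT010467.1 the count was 216, of which 163 were among the 378. Of the 72 genes called in liver, 42 differed, and 32 did so in all 3 fits (edgeR, edgeR with the block and limma). The 72 were chosen on these same liver libraries, so their share is not set against the background. The fit pools the spread of all tissues, and liver values differ slightly from those above.

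Among genes also called in liver alone, the 6 with the smallest p were Slc2a4, Wipi1, Trib3, 1810013L24Rik, Mafk and Bhlhe41. Trib3 was at -1.99 ± 0.25 in liver, 0.20 ± 0.29 in cortex, -0.57 ± 0.28 in kidney and 0.37 ± 0.24 in WAT, a liver difference of -1.99 (edgeR adjusted p = 4.52e-05). Bhlhe41 was at -1.83 ± 0.27 in liver and at 0.32 ± 0.22, -0.18 ± 0.24 and -0.26 ± 0.23 in the others (difference -1.79, adjusted p = 0.000308). Fasn was at 1.48 ± 0.34 in liver and at -0.03 ± 0.33, -0.39 ± 0.34 and -0.51 ± 0.34 in cortex, kidney and WAT (difference 1.79, adjusted p = 0.00659).

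Clock genes split here. Nr1d1 fell in liver by 2.23 on the log2 scale and was at -1.25 ± 0.26 in kidney, -1.27 ± 0.27 in WAT and -0.24 ± 0.25 in cortex, and the liver difference was -1.31 (edgeR adjusted p = 0.00976). Dbp had a liver difference of -1.04 (adjusted p = 0.0396). Cry1 was at 1.12 ± 0.21 in liver and 1.74 ± 0.22 in kidney (difference from the mean of the others 0.10, adjusted p = 0.962).

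Some genes called in liver were also above 0 in WAT. Angptl8 was at 2.24 ± 0.38 in liver and 2.50 ± 0.41 in WAT, and Ppp1r3b at 1.59 ± 0.27 and 1.58 ± 0.30. Neither had a liver difference that passed (edgeR adjusted p = 1 and 0.252). Tnnc1 was at 2.67 ± 0.29 in liver, 2.30 ± 0.35 in WAT, 0.31 ± 0.27 in kidney and -0.50 ± 0.27 in cortex, and its difference from the mean of the 3 passed (1.96, adjusted p = 0.00038). Liver and WAT alone were not set against each other by a test.

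**Figure D5:**
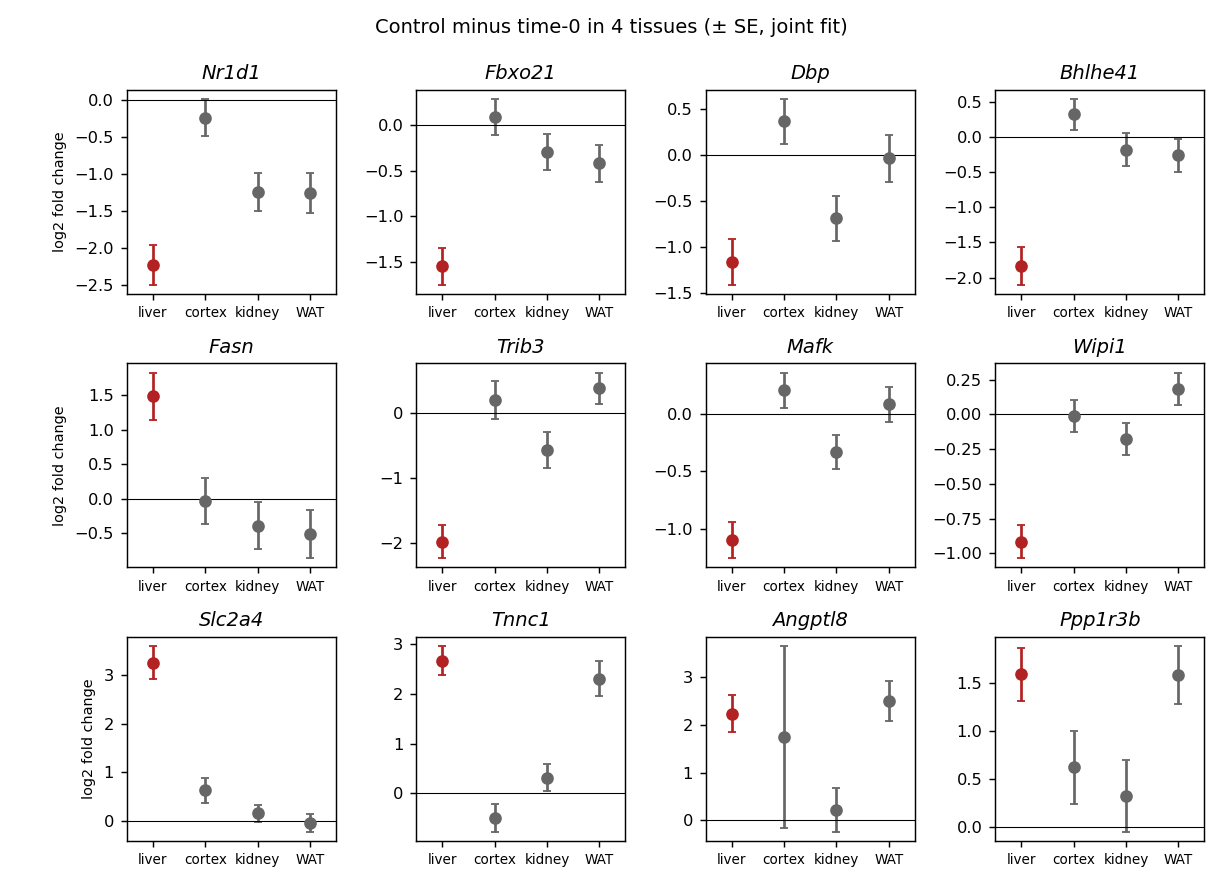
Log2 fold change (control minus time-0) with SE bars from the joint fit, for 12 genes in liver (red), cortex, kidney and WAT (grey); y axes differ between panels. Nr1d1, Fbxo21, Dbp, Bhlhe41, Fasn, Trib3, Mafk, Wipi1, Slc2a4 and Tnnc1 had liver differences that passed. Angptl8 and Ppp1r3b did not, and Angptl8 is at 2.24 in liver and 2.50 in WAT.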

How the data were processed

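Liver RNA of 8 control and 8 time-0 mice was compared, and 8 TLS libraries added to the estimate of spread. The deposited values are raw counts per gene, made by the authors with featureCounts per the file headers, from reads aligned with STAR 2.7.10 to mm10 (GRCm38) per the submitters' processing notes. The header's word "corrected" is unexplained, and the strand setting and annotation are not given in the sources used here. Of 55401 rows, 107 symbols repeat. Groups came from the treatment labels.

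Counts were fitted with edgeR 4.0.16 in R 4.3.3 (robust quasi-likelihood, TMM, filterByExpr with a minimum count of 10, sex as covariate), and a gene was called where the Benjamini-Hochberg adjusted p was under 0.05. SE is the log2 fold change divided by the square root of F, and log2 CPM used a prior count of 2. DESeq2 1.42.0, limma 3.58.1 and other filters, scalings, covariates and sample sets were alternatives. Coordinates are from GENCODE vM21. The comparison, lists and motifs were chosen with earlier results of these data known. Named genes are the 12 largest rises and falls and the 5 smallest p each way (calls averaging 1 or more on the log2 CPM scale), up to 4 members per list, a fixed set of 16, the clock list and the 6 smallest p of the tissue difference. Others named were chosen after their values were seen, and a few genes that met the rule are not reported here. No 2 libraries were duplicates (56 pairs). The self-test on simulated counts (13451 genes) called 38% of 50 genes changed 2-fold and 90% of 50 changed 3-fold. With 7 false among 123 calls, smaller changes were often not detectable at the spread and group sizes of these libraries. Depth was not varied. Tissues of an animal share its number in the labels. Deviations of 45 same-animal pairs correlated at a mean of -0.00544, against 0.00195 in 135 other pairs. These means are not independent, because values were first centred within each tissue, treatment and sex.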

Additional observations from a re-analysis of the deposited data

Results flagged for a closer look

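In groups of 8 livers, a library was marked where its gap to the next passed Dixon's critical value. Of 58 such groups checked, 6 were marked, and chance marks about 1 in 20. Time-0 animal 2 was highest for Nr1d1 (log2 CPM 6.99, next 6.48). Control animal 983B was lowest for Bhlhe41 (-2.03, next -0.12). Time-0 animal 1 was highest for Cyp4a32 (4.88, next 3.88) and held 18.6% of counts from CT010467.1, with 3.13% in the next time-0 liver. Control animal 5A66 was highest for Tbc1d30 (3.16, next 2.04), and control animal E329 for mitochondrially encoded genes (7.48% of counts, next 3.82%).

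In the joint edgeR fit, 10 genes had a liver change that differed from the mean of the other 3 tissues among the 6 smallest p, the clock list and the fixed set of 16. The differences were 3.01 for Slc2a4, -0.92 for Wipi1, -1.99 for Trib3, -0.69 for 1810013L24Rik, -1.08 for Mafk, -1.79 for Bhlhe41, -1.04 for Dbp, 1.79 for Fasn, -1.31 for Nr1d1 and 0.77 for Srebf1, all on the log2 scale. Of these, Dbp and Srebf1 were not called in liver alone. Other called genes also differed, and not all of them are named in this report.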

How the results depend on the processing

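No paired analysis was possible because control and time-0 livers come from different animals that share no number. In the tissue comparison 1.88% of genes tested (378) were called. The animal could serve as a replicate block only without kidney time-0 libraries 4 and 5, whose sex labels conflict with those of the same animals' other tissues. That gave 0.862% (175), against 285 genes from the same libraries with no block. Without the 4 liver libraries rich in CT010467.1 it was 1.05% (216), and the latter 2 sample sets were chosen after seeing the data. The liver calls (72, or 0.529% of genes tested) became 1.61% (251) with DESeq2 and 10.3% (1402) with limma and quality weights, which held 72 and 71 of the 72. They became 0.287% (39) with sex left out, 2.69% (349) with the 16 libraries alone, 0.00731% (1) in F and 0.0438% (6) in M libraries, and 0.853% when the fit also took in the share of nuclear RNA. The alternatives chosen after seeing the data gave 0.25% (34) with the CT010467.1 share in the fit and 0.085% (12) without the 4 richest libraries. Leaving out each library in turn gave 0.225 to 0.596% (31 to 82). Other scaling and filters, sex crossed with treatment and a depth minimum gave 69 to 82 genes. The difference between M and F, with 0 calls, gave 0.0066% (2) with DESeq2, 0.0294% (4) with limma and 0.00771% (1) with the 16 libraries alone. The cause was not tested. Sample sets of 1 sex or without libraries hold fewer animals by construction. No gene looked up reversed its sign past the threshold in any of these alternatives. Changes of 2-fold or less were often missed in the self-test.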
